A study of Mus musculus with 16 samples.

Results

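The comparison described here is pressure overload in control hearts. Its members are the 4 arrays of control mice after transverse aortic constriction (TAC) set against the 4 arrays of control mice after a sham operation, 8 of the 16 arrays in the series. Values are given for 13670 genes, each with a probe set of 1 gene symbol whose mean log2 signal exceeded the 40th percentile of all probe sets. Each gene is represented by its probe set of highest mean over the 16 arrays. The study measured heart RNA from male C57BL/6 mice, 1 array per mouse, that were 8 to 10 weeks old at surgery and were sampled after 4 weeks. The 8 mice described carry the genotype label control, and the other 8 are labelled zbtb17 cKO, a conditional knockout of the gene for Miz1, a transcription factor. Which cells lose Zbtb17, which Cre line was used and whether the controls carry floxed alleles or Cre are details not given in the sources used.

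TAC ties a constriction around the aortic arch, so that the left ventricle must pump against a raised pressure. In the usual account of this model, cardiomyocytes enlarge and turn on fetal genes such as Nppa, Nppb, Myh7 and Acta1, fibroblasts lay down collagen, and immune cells enter the wall. Genes of fatty acid oxidation, the main fuel pathway of the adult heart, are often reported to decline once the ventricle fails.

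The deposited values are on a log2 scale and ran from 2.34 to 14.35, so a difference of 1 is a 2-fold difference in signal. Values below are listed for replicates 1 to 4 in that order, and a difference always means TAC minus sham with its standard error (SE) from limma. All 16 cardiomyocyte markers were measured, and Myh6, which encodes the main myosin of the adult mouse ventricle, had a mean of 13.21 after sham and 13.14 after TAC. Spearman correlations among the 8 control arrays lay between 0.972 and 0.986. Control sham replicate 1 was least like the rest of its group, with a mean correlation of 0.974. Some arrays stood apart by single genes and were left out together, by gene, in 2 alternatives added after the data were seen. Myl7, an atrial myosin light chain, was at 4.30, 5.02, 8.62 and 4.92 in the sham hearts and 6.07, 7.26, 4.54 and 4.39 in the TAC hearts, so that sham replicate 3 and TAC replicates 1 and 2 lay above 6. Atf3, a stress-induced transcription factor, was at 6.38, 6.13, 10.18 and 8.45 in the sham hearts, with replicates 3 and 4 above 8, and at 6.20, 6.15, 6.36 and 6.79 in the TAC hearts. Precision is limited by 4 arrays in each group.

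No gene passed the test between TAC and sham in control hearts. Of 21333 probe sets tested with limma, 0 had an adjusted p under 0.05, while 1774 (8.32%) had an unadjusted p under 0.05. Among the 13670 genes, 679 (4.97%) were higher after TAC and 353 (2.58%) were lower at an unadjusted p under 0.05. In 359 genes (2.63%) all 4 TAC values lay above all 4 sham values, and in 168 (1.23%) all 4 lay below. Both conditions, no overlap and an unadjusted p under 0.05, held for 246 higher genes (1.8%) and 120 lower genes (0.878%). The balance of the 2 directions moved with the processing. Of the probe sets at an unadjusted p under 0.05, 58.9% were higher after TAC, while median centring gave 75.2%, the stricter filter on low signal 69.5%, quantile normalization 51.6% and no filter 39.8%, where the lower side was the larger. The sign was positive in 56.5% of genes and negative in 42.6%, and the median difference over all genes was 0.02. The typical difference was small, with a median absolute difference of 0.085 and the 5th and 95th percentiles at -0.20 and 0.26. Only Serpina3n, Npl, Atf3, Otud1 and Ogdhl differed by more than 1 on the log2 scale, and in the last 3 the values of the groups overlapped. Genes whose TAC values all lay above sham had a median level of 6.80, and those whose TAC values all lay below had a median level of 5.66, against 6.51 for all genes. Of the 168 genes on the lower side, 86 belonged to the third of genes with the lowest signal, where a given log2 difference stands for little signal.

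**Figure D1:**
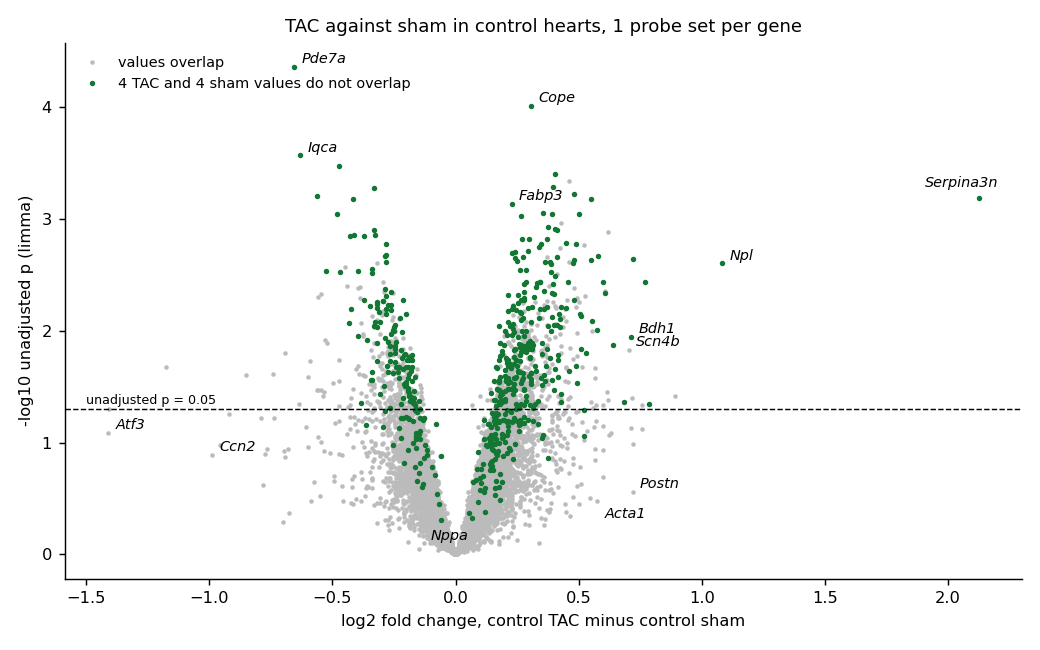
Difference between control TAC and control sham hearts (x axis, log2) against -log10 of the unadjusted limma p (y axis) for each of 13670 genes, 1 point per gene, in green where the TAC and sham values do not overlap. Serpina3n lies alone at 2.13 on the x axis, and the points above the line at an unadjusted p of 0.05 number 679 to the right of 0 and 353 to the left.

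Serpina3n, which encodes a secreted serine protease inhibitor of the acute-phase response, had the largest difference of all 13670 genes. Its log2 values were 6.04, 5.98, 6.86 and 5.90 in the sham hearts and 8.33, 8.27, 8.41 and 8.27 in the TAC hearts. The TAC values lay within 0.14 of each other and 1.41 above the highest sham value, that of replicate 3. The difference was 2.13 ± 0.50, a 4.36-fold higher mean (unadjusted p = 0.00065, adjusted p = 0.35 by limma). Fitted on the 8 control arrays alone it was the 1 gene that passed, with an adjusted p of 0.0213, and over all alternatives its adjusted p ranged from 0.0213 to 0.857. The spread used in the 16-array test includes that of the cKO hearts, which had Serpina3n values of 7.02 ± 0.50 (SD) after the sham operation and 7.59 ± 1.45 (SD) after TAC, n = 4 each. Serpina3n has close relatives in the same gene cluster, and whether its probe set separates them was not tested. Leaving out any 1 array gave differences between 2.03 and 2.35.

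Other secreted or immune genes were among the largest differences with separate groups. C4b, a component of the complement cascade, was at 5.11, 5.0, 5.20 and 4.97 in the sham hearts and 5.54, 6.34, 5.76 and 5.79 in the TAC hearts, a difference of 0.79 ± 0.36. C4b has a near-identical copy, C4a, and signal of the pair cannot be told apart here. Lbp, which binds bacterial lipopolysaccharide in plasma, was at 6.12, 6.32, 6.68 and 6.24 in the sham hearts and 6.87, 7.06, 6.78 and 7.38 in the TAC hearts. All 4 TAC values of Lbp lay above sham, though TAC replicate 3 exceeded the highest sham value by only 0.10, and the difference was 0.68 ± 0.31. Ctsh, a lysosomal cysteine protease, differed by 0.64 ± 0.23 and likewise had no overlap. None of these passed the test, with an adjusted p of 0.595 for C4b, 0.594 for Lbp and 0.505 for Ctsh by limma.

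Several genes of small-molecule metabolism completed the upper end. Npl, which splits sialic acid, was at 6.09, 5.38, 6.04 and 5.53 in the sham hearts and 7.16, 7.05, 6.31 and 6.85 in the TAC hearts, a difference of 1.08 ± 0.30. The lowest TAC value of Npl, in replicate 3, was 0.22 above the highest sham value. Blvrb, a reductase of heme breakdown, was at 7.15, 7.86, 8.00 and 8.01 in the sham hearts and 8.12, 8.72, 8.49 and 8.58 in the TAC hearts, a difference of 0.72 ± 0.20. Sham replicate 1 was the lowest Blvrb value, and TAC replicate 1 was only 0.11 above the highest sham value. Bdh1, the mitochondrial enzyme that interconverts the ketone bodies, was at 7.80, 8.54, 8.40 and 8.36 in the sham hearts and 8.76, 9.29, 8.73 and 9.17 in the TAC hearts, a difference of 0.71 ± 0.25. Retsat, a retinol saturase, was at 7.30, 7.39, 7.23 and 7.67 in the sham hearts and 7.74, 8.05, 8.37 and 7.83 in the TAC hearts, with TAC replicate 3 the highest and a difference of 0.60 ± 0.18. The adjusted p by limma was 0.425 for Npl, 0.425 for Blvrb, 0.505 for Bdh1 and 0.462 for Retsat. Xlr at 0.61 and the olfactory receptor gene Olfr1396 at 0.77 were the remaining genes among the 10 largest positive differences with an unadjusted p under 0.05 and no overlap.

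Among genes with no overlap and an unadjusted p under 0.05, the largest negative difference was that of Pde7a, a phosphodiesterase that breaks down cyclic AMP. Its values were 7.84, 7.87, 7.95 and 7.75 in the sham hearts and 7.22, 7.31, 7.14 and 7.12 in the TAC hearts, so that every TAC heart lay at least 0.44 below every sham heart. The difference was -0.66 ± 0.12 (unadjusted p = 4.39e-05, adjusted p = 0.186 by limma). Etv5, an ETS-family transcription factor, differed by -0.43 ± 0.13, Shank2, a scaffold protein of synapses, by -0.56 ± 0.13, and Cdh20, a cadherin, by -0.47 ± 0.13. The other genes among the 10 largest negative differences under the same limits were Iqca at -0.63, Gm5771 at -0.53, Vwa3b at -0.48, 1700001C19Rik at -0.48, Slco5a1 at -0.43 and Gm11992 at -0.43. Probe sets of the same gene disagreed in several of these. A second probe set gave -0.07 for Iqca, -0.09 for Shank2, -0.19 for Vwa3b and 0.05 for Etv5. The smallest adjusted p of any probe set, 0.0613, belonged to a Dnah3 probe set at 5.07, 4.93, 4.63 and 4.88 after sham and 4.09, 4.02, 4.35 and 4.05 after TAC. A brighter Dnah3 probe set differed by -0.08 ± 0.08, so the probe sets of this dynein heavy chain gene disagree.

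Some of the smallest p-values belonged to small differences. Cope, a subunit of the COPI vesicle coat, was at 9.14, 9.03, 9.15 and 9.01 in the sham hearts and 9.35, 9.40, 9.33 and 9.48 in the TAC hearts, a difference of 0.31 ± 0.06 (adjusted p = 0.223 by limma). Usf1, an E-box-binding transcription factor, was at 5.75, 5.78, 5.94 and 5.98 in the sham hearts and 6.25, 6.29, 6.25 and 6.24 in the TAC hearts, with the 4 TAC values within 0.05 of each other and a difference of 0.40 ± 0.09 (adjusted p = 0.35). Cox6a1, a subunit of cytochrome c oxidase, was at 9.26, 8.78, 8.77 and 9.01 in the sham hearts and 9.40, 9.18, 9.62 and 9.46 in the TAC hearts, a difference of 0.46 ± 0.10. Sham replicate 1 was the highest Cox6a1 value of its group, above TAC replicate 2. Lsm4, part of the ring that binds spliceosomal RNA, differed by 0.41 ± 0.09, Prickle2, a planar polarity protein, by 0.48 ± 0.11, and Sprr4, a gene of the cornified envelope family, by -0.33 ± 0.08.

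**Figure D2:**
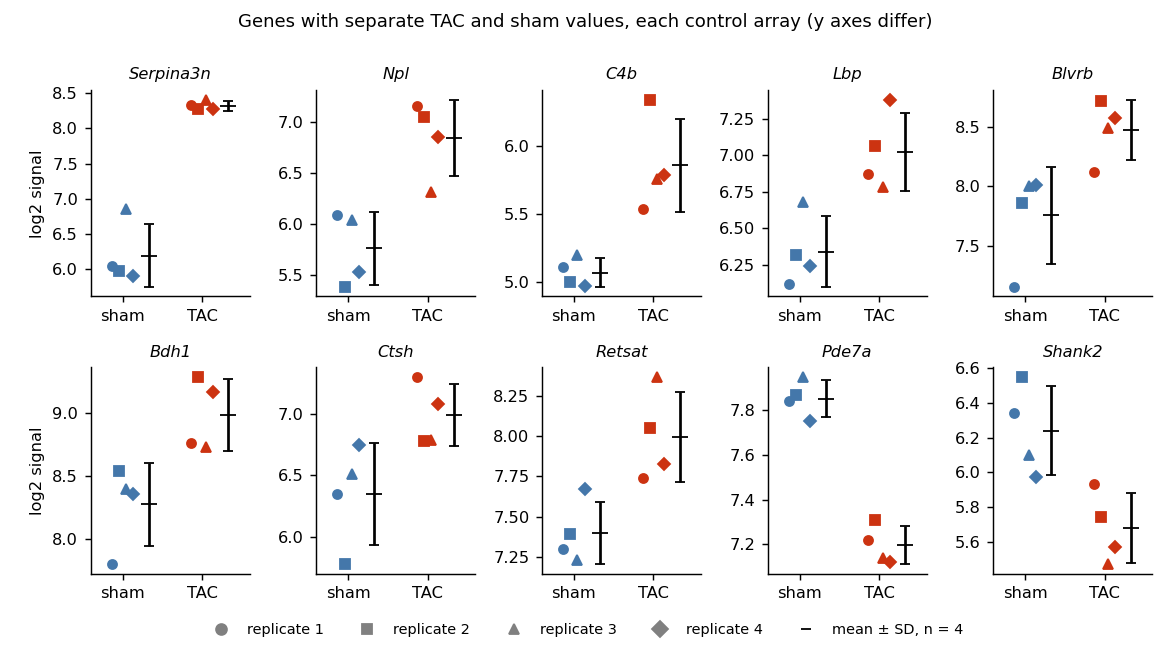
Log2 values (y axis) of the genes with leading differences in each control heart, 1 point per mouse, sham against TAC, with the group mean as a line and its SD as a bar (n = 4 each). Serpina3n separates by 1.41 between the highest sham and the lowest TAC value, and Pde7a lies lower in all 4 TAC hearts.

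None of the 22 established overload markers passed the test. Of these, 10 were positive and 12 negative, with a median difference of -0.03 against 0.02 over all genes. The list's median was 0.13 without TAC replicate 1 and -0.08 without sham replicate 1. In 0 of the 22 did the TAC values all lie above sham (2.63% of all genes), and in 1, Kcnip2, they all lay below (1.23%). Nppa, the atrial natriuretic peptide gene, was at 11.17, 11.77, 11.99 and 12.11 in the sham hearts and 9.86, 12.24, 11.50 and 12.92 in the TAC hearts. Its highest and its lowest value, replicates 4 and 1, were both in the TAC group, and the difference was -0.13 ± 0.49. Nppb, the gene of B-type natriuretic peptide, was at 11.30, 10.56, 11.92 and 11.72 in the sham hearts and 9.94, 11.30, 11.14 and 11.97 in the TAC hearts, again lowest in TAC replicate 1, with a difference of -0.29 ± 0.41. Myh7, the slow fetal myosin, was at 8.31, 10.15, 10.17 and 9.67 in the sham hearts and 8.84, 11.03, 10.68 and 9.75 in the TAC hearts, a difference of 0.50 ± 0.52. Sham replicate 1 and TAC replicate 1 were the lowest Myh7 values of their groups. Without the former the Myh7 difference was 0.078, and without the latter 0.91. Acta1, skeletal actin, was at 9.84, 10.54, 10.02 and 9.99 in the sham hearts and 9.31, 11.60, 9.88 and 11.90 in the TAC hearts, with TAC replicates 2 and 4 above every sham heart, TAC replicate 1 below them all, and a difference of 0.58 ± 0.58. The Acta1 difference was 0.17 without TAC replicate 4 and 1.03 without TAC replicate 1. Myh6, whose decline relative to Myh7 is the classical isoform switch, differed by -0.07 ± 0.11.

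Without the arrays with Myl7 above 6, which leaves 3 sham and 2 TAC control arrays, Nppa was at 0.53 and Nppb at 0.36, the opposite sign. With the sham arrays above 8 in Atf3 left out, the differences were 0.16 for Nppa and 0.16 for Nppb. Without TAC replicate 1 they were 0.46 and 0.095. TAC replicate 1 was also at 6.07 for Myl7, and the part of atrial tissue in these values was not tested.

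Kcnip2, the accessory subunit of the transient outward potassium channel, was at 9.26, 9.49, 9.25 and 9.23 in the sham hearts and 8.85, 9.20, 9.06 and 9.10 in the TAC hearts. Its TAC values were all lower than sham, by as little as 0.03 between the nearest hearts, and the difference was -0.26 ± 0.15 (unadjusted p = 0.105, adjusted p = 0.666 by limma). Acta2, smooth muscle actin and a marker of myofibroblasts, was at 10.57, 10.58, 10.90 and 10.90 in the sham hearts and 9.72, 10.24, 10.69 and 10.31 in the TAC hearts. Only TAC replicate 3 reached into the sham range of Acta2, and the difference was -0.50 ± 0.21 (unadjusted p = 0.0295, adjusted p = 0.565). Ccn2, a matricellular protein induced by stretch and TGF-beta, was at 8.97, 9.18, 11.68 and 11.00 in the sham hearts and 8.36, 9.58, 9.21 and 9.72 in the TAC hearts, and Myc, a growth-promoting transcription factor, at 4.76, 5.08, 7.02 and 6.57 in the sham hearts and 5.11, 5.42, 4.61 and 5.52 in the TAC hearts. In both, sham replicates 3 and 4 were far above the other sham hearts, the same replicates in which Atf3 was high. The differences were -0.99 ± 0.62 for Ccn2 and -0.69 ± 0.44 for Myc, and without those sham arrays 0.14 and 0.245.

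Among the stretch and Z-disc genes of the list the differences were near 0. Ankrd1, a cardiac ankyrin repeat protein, differed by -0.07 ± 0.20, Xirp2 by 0.04 ± 0.22, Csrp3, the muscle LIM protein, by -0.01 ± 0.07, Enah by -0.05 ± 0.20 and Fhl1, a LIM protein of hypertrophy, by 0.15 ± 0.21. Rcan1, the target gene and inhibitor of calcineurin, differed by -0.06 ± 0.39, and Atp2a2, the calcium pump of the sarcoplasmic reticulum, by -0.04 ± 0.07. Tgfb2 at 0.30 ± 0.30, Timp1, an inhibitor of matrix proteases, at 0.48 ± 0.45, and Lox, the collagen crosslinking enzyme, at 0.11 ± 0.36 were positive with overlapping groups. None of the 22 had an adjusted p under 0.05 by limma, and Acta2 alone had an unadjusted p under 0.05.

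**Figure D3:**
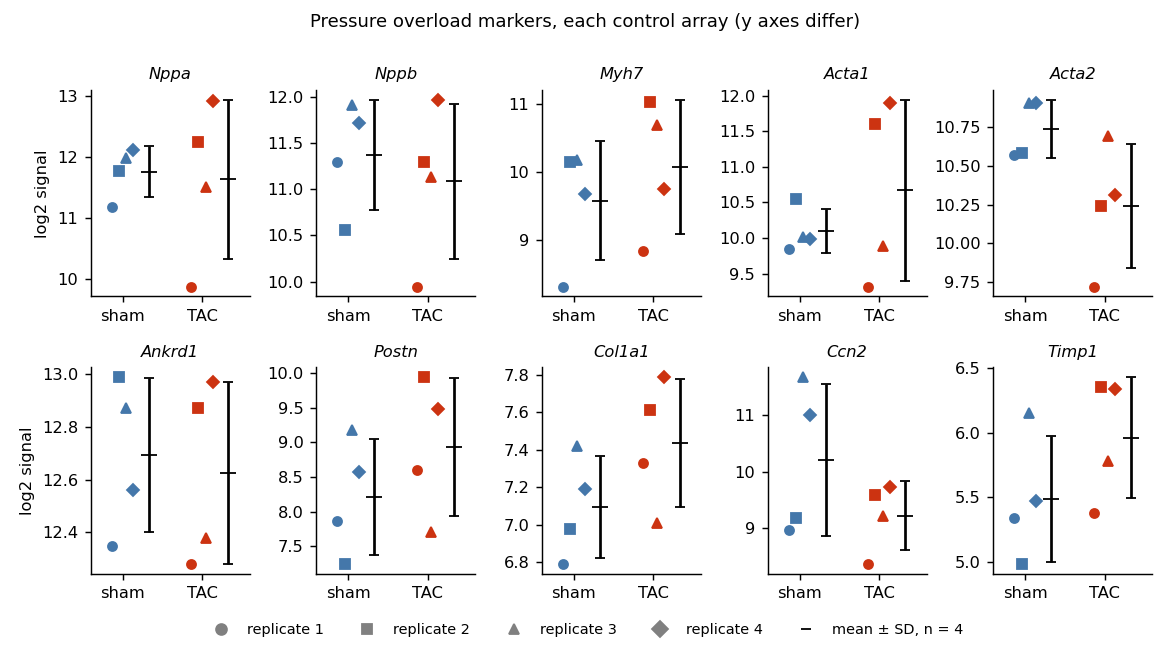
Log2 values (y axis) of overload markers in each control heart, sham against TAC, 1 point per mouse with the group mean as a line and its SD as a bar (n = 4 each). The groups overlap in each marker plotted, and TAC replicate 1 has the lowest Nppa value, at 9.86.

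Most genes of the extracellular matrix had small positive differences, and none passed the test. Of the measured matrix genes 37 of 39 were positive, with a median of 0.25, where 56.5% of all genes were positive with a median of 0.02. Without the Myl7 arrays the median was 0.32, and without the Atf3 arrays 0.49. The Atf3 arrays, sham replicates 3 and 4, had the highest sham means of this list, so their removal takes out high sham values. Sham replicate 3 is also among the Myl7 arrays. Leaving out 1 array gave medians from 0.19 without sham replicate 2 to 0.37 without sham replicate 3. Only Thbs2, a matricellular glycoprotein, had TAC values all above sham, 1 of 39 genes, which is near the 2.63% of all genes. Thbs2 was at 7.06, 7.35, 7.31 and 7.13 in the sham hearts and 7.72, 7.68, 7.56 and 7.57 in the TAC hearts, with a difference of 0.42 ± 0.14. Mmp14, the membrane-bound protease that activates Mmp2, differed by 0.35 ± 0.13, and Mmp2 itself by 0.44 ± 0.29. Postn, a matrix protein made by activated fibroblasts, was at 7.86, 7.24, 9.18 and 8.57 in the sham hearts and 8.60, 9.95, 7.70 and 9.48 in the TAC hearts, spread over 1.94 among sham and 2.25 among TAC hearts. The Postn difference was 0.72 ± 0.64, and every sham heart but replicate 2 exceeded TAC replicate 3. Without TAC replicate 3 it was 1.13, and without TAC replicate 2 it was 0.38. Col1a1, the main fibrillar collagen chain, was at 6.79, 6.98, 7.42 and 7.19 in the sham hearts and 7.33, 7.61, 7.01 and 7.79 in the TAC hearts, a difference of 0.34 ± 0.25 (0.22 without TAC replicate 4), and Col3a1 differed by 0.26 ± 0.20. The exceptions were Thbs1 at -0.68 ± 0.83 and Timp3 at -0.29 ± 0.31.

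Fibroblast markers shared this pattern, and several of them are the same collagen and matrix genes. 23 of 24 were positive, with a median of 0.26, 0.32 without the Myl7 arrays and 0.41 without the Atf3 arrays. The Atf3 arrays again had the highest sham means of the list. When 1 array was left out, the median ran from 0.18 without sham replicate 2 to 0.35 without TAC replicate 3. In this bulk tissue, more cells of a type and more RNA per cell cannot be told apart. Pdgfra, the receptor that marks cardiac fibroblasts, was at 7.46, 7.35, 7.60 and 7.41 in the sham hearts and 7.73, 7.85, 7.65 and 7.85 in the TAC hearts, a difference of 0.32 ± 0.16 without overlap. S100a4 at 0.22 ± 0.11 was the other marker without overlap, so that 2 of 24 lay apart on the higher side against 2.63% of all genes. Dpep1 differed by 0.44 ± 0.15, Dcn, decorin, by 0.26 ± 0.13, and Fap, a protease of activated fibroblasts, by -0.11 ± 0.16. The summed linear signal of the fibroblast list ran from 11396 to 16529 in the sham hearts and 13755 to 17999 in the TAC hearts, ranges that overlap.

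In TGF-beta signalling, the pathway that activates fibroblasts, 13 of 21 genes were positive with a median of 0.04. The receptor Tgfbr2 was at 7.71, 7.73, 7.66 and 7.66 in the sham hearts and 7.78, 8.00, 7.80 and 8.14 in the TAC hearts, without overlap and with a difference of 0.24 ± 0.14. The inhibitory Smad6 differed by 0.18 ± 0.08, the ligand genes Tgfb1 by 0.11 ± 0.15 and Tgfb3 by 0.05 ± 0.29, and the BMP receptor Bmpr1a by -0.26 ± 0.09. The signal transducers Smad2, Smad3 and Smad4 were at 0.04, -0.03 and -0.01.

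Macrophage markers were positive in 18 of 21, with a median of 0.27. In 0 of them did the groups separate, where 2.63% of all genes lay apart on the higher side and 1.23% on the lower. The C1q chains, complement proteins that tissue macrophages secrete, differed by 0.45 ± 0.18 for C1qa, 0.46 ± 0.23 for C1qb and 0.55 ± 0.25 for C1qc. C1qa was at 7.31, 6.69, 6.88 and 7.06 in the sham hearts and 7.28, 7.46, 7.16 and 7.84 in the TAC hearts, and the receptor gene Csf1r at 7.92, 7.29, 7.44 and 7.69 in the sham hearts and 7.86, 7.88, 7.82 and 8.30 in the TAC hearts, with TAC replicate 4 the highest in both. Csf1r differed by 0.38 ± 0.17. TAC replicate 4 had the highest list mean, and without it the median was 0.089, the lowest of all leave-one-out values. Summed linear signal of the macrophage list was 2647 to 4284 in the sham hearts and 3356 to 5668 in the TAC hearts. Among other leukocyte markers, neutrophil genes were measured for only 3 of 10 and lymphocyte genes for 5 of 19. The neutrophil genes were positive in 2 of 3 and the lymphocyte genes in 3 of 5. In 1 of the 5 lymphocyte genes the TAC values all lay below sham (1.23% of all genes), and in 0 all above (2.63%). S100a9 of neutrophils differed by 0.07 ± 0.11, Cd4 of T cells by 0.09 ± 0.09 and Ptprc, the pan-leukocyte antigen, by 0.28 ± 0.17.

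Interferon-stimulated genes were positive in 14 of 17, with a median of 0.16, 0.44 without the Myl7 arrays and 0.24 without the Atf3 arrays. Ifit2, which binds viral RNA, was at 6.79, 6.59, 6.65 and 6.46 in the sham hearts and 6.84, 6.97, 6.93 and 7.22 in the TAC hearts. It differed by 0.37 ± 0.14 and was the 1 of 17 members without overlap, where 2.63% of all genes lay apart on the higher side. Rsad2, the antiviral enzyme viperin, was at 6.33, 6.43, 6.96 and 6.62 in the sham hearts and 7.15, 7.11, 6.71 and 7.59 in the TAC hearts, a difference of 0.56 ± 0.19 (unadjusted p = 0.0101, adjusted p = 0.505 by limma). Its TAC replicate 4 was the highest value and TAC replicate 3 was below sham replicate 3. Ifit3 differed by 0.41 ± 0.27, Irf7, an interferon regulatory factor, by 0.44 ± 0.21, and Ifih1, a sensor of double-stranded RNA, by 0.37 ± 0.17. Without TAC replicate 4 the list median was 0.054. Among cytokines and chemokines 7 of 17 were positive. Ccl5 differed by 0.26 ± 0.08 without overlap, Cxcl12 by 0.41 ± 0.13, Tnf by -0.21 ± 0.16 and Ccl7 by -0.27 ± 0.21.

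The promoters of Rsad2 and Ifit3 are shown as members of the interferon list picked for holding the element through which interferon signalling acts. RefSeq promoters of GRCm38.p6, from 250 bases before to 50 bases after the gene start, were searched on both strands for GAAA, any pair of bases and GAAA again, the core of the interferon-stimulated response element. It was found in 9 of 15 list members with a promoter and in 3.99% of 27025 genes. Ifit2, the member without overlap, and Irf7 were among the members with no match. The Rsad2 promoter is chr12:26456403-26456702 on the minus strand and that of Ifit3 is chr19:34583279-34583578 on the plus strand. Capitals mark the matches, which read TTTC, a pair of bases and TTTC here and begin 120 bases before the start in Rsad2 and 156 and 122 bases before it in Ifit3.
Rsad2: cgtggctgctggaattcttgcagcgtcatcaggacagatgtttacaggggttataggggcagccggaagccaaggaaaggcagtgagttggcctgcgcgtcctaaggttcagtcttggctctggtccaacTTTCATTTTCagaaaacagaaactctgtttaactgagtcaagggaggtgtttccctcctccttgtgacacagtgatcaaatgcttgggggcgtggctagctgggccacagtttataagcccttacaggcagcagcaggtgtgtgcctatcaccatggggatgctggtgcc
Ifit3: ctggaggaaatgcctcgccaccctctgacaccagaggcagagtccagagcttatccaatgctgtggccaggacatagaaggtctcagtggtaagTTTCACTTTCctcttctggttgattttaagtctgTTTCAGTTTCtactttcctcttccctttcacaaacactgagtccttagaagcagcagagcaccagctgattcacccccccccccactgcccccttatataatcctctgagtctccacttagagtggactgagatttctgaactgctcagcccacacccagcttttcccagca
A match describes the letters of the promoter and is not evidence that a factor was bound. For the acute-phase genes, TTCCNGGAA, the element of STAT factors, was in 0 of the 2 with a promoter, Serpina3n and Lrg1, and in 1.35% of all genes. With only 2 promoters, this count cannot tell these genes from others.

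Endothelial markers were positive in 19 of 22 with a median of 0.16, which was 0.094 without TAC replicate 1. Vwf, the von Willebrand factor, was at 6.55, 6.69, 7.0 and 6.99 in the sham hearts and 7.17, 7.18, 7.22 and 7.08 in the TAC hearts, a difference of 0.36 ± 0.19 without overlap. Tek, the angiopoietin receptor, differed by 0.30 ± 0.13 and Cdh5, the endothelial cadherin, by 0.19 ± 0.09. Smooth muscle and pericyte markers were positive in 10 of 15 with a median of 0.08, and ran from -0.50 to 0.32. The pericyte genes Cspg4 and Pdgfrb differed by 0.24 ± 0.09 and 0.32 ± 0.13. The smooth muscle genes Myh11 at 0.03 and Tagln at 0.08 were near 0, while Acta2, described above, was at -0.50 ± 0.21. Among angiogenic factors 13 of 19 were positive. Vegfa, the main growth factor of endothelial cells, was at 10.07, 9.98, 10.13 and 9.98 in the sham hearts and 9.67, 9.62, 9.88 and 9.86 in the TAC hearts, lower in every TAC heart, with a difference of -0.28 ± 0.09 (unadjusted p = 0.0049, adjusted p = 0.475 by limma). Vegfc, the lymphatic growth factor, was at 6.52, 6.39, 6.10 and 5.97 in the sham hearts and 6.78, 6.59, 6.58 and 6.58 in the TAC hearts, higher in every TAC heart, with a difference of 0.39 ± 0.13. Hif1a differed by -0.15 ± 0.10 and Epas1, its relative in endothelium, by 0.11 ± 0.07.

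The measured genes of fatty acid oxidation were almost all on the positive side. Acsl1 and Cpt1b, 2 further members of the list, were not measured. In 28 of 29 the difference was above 0, with a median of 0.15, and the exception was Angptl4, an inhibitor of lipoprotein lipase, at -0.11 ± 0.10. In 5 of 29 the TAC values all lay above sham, where 2.63% of all genes did, and 8 had an unadjusted p under 0.05 on that side, where 4.97% did. The list median was 0.14 without the Myl7 arrays, 0.145 without the Atf3 arrays and between 0.10 and 0.21 when any 1 array was left out. Fabp3, the fatty acid binding protein of heart, was at 12.96, 12.76, 12.70 and 12.88 in the sham hearts and 13.11, 13.03, 13.05 and 13.02 in the TAC hearts, a difference of 0.23 ± 0.05 (unadjusted p = 0.000734, adjusted p = 0.364 by limma). Slc25a20, the carnitine carrier of the inner mitochondrial membrane, was at 9.55, 9.37, 9.29 and 9.52 in the sham hearts and 10.05, 9.64, 9.96 and 9.70 in the TAC hearts, a difference of 0.41 ± 0.12. Ehhadh, a peroxisomal enzyme of beta-oxidation, was at 5.39, 5.77, 5.61 and 5.89 in the sham hearts and 6.20, 5.98, 6.28 and 6.15 in the TAC hearts, a difference of 0.49 ± 0.13. In each of these 3 the groups did not overlap, as in Etfdh at 0.20 ± 0.11 and Acot2 at 0.46 ± 0.13. Acot2 and Acot1, at 0.44 ± 0.14, encode very similar thioesterases, and signal of the pair may be shared.

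The enzymes of the core beta-oxidation spiral had smaller differences. Acadm, Acadl and Acadvl, dehydrogenases for medium, long and very long chains, were at 0.05, 0.11 and 0.15, and the trifunctional protein genes Hadha and Hadhb at 0.09 and 0.13. Larger values belonged to genes at the edges of the pathway. Plin5, which coats lipid droplets, differed by 0.47 ± 0.17, Mlycd, which breaks down malonyl-CoA, by 0.37 ± 0.14, Pdk4, which blocks pyruvate oxidation, by 0.40 ± 0.26 and Ucp3, an uncoupling protein, by 0.42 ± 0.29. The list means were 10.17 and 10.16 in TAC replicates 1 and 3 and 9.90 and 9.87 in TAC replicates 2 and 4. Sham means ran from 9.69 to 9.91, so that only TAC replicates 1 and 3 stood above every sham heart. A PPAR response element, AGGTCA repeated after 1 base, was in 0 of 26 members' promoters and in 0.05% of all genes. An exact match is so rare that this count of 0 cannot tell the list from other genes.

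The transcription factors and coactivators that govern this pathway had differences of both signs. Ppara, the fatty acid receptor, differed by -0.22 ± 0.19, its coactivator Ppargc1a by -0.36 ± 0.22 and Esrrg by -0.28 ± 0.14. A second Ppargc1a probe set gave -0.48. Esrra, the estrogen-related receptor alpha, was at 7.65, 7.80, 7.80 and 7.69 in the sham hearts and 7.90, 7.95, 8.14 and 7.89 in the TAC hearts, without overlap, a difference of 0.24 ± 0.10, and Tfam, the mitochondrial DNA packaging factor, differed by 0.25 ± 0.16. In all, 7 of 15 regulators were positive.

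Respiratory chain genes were positive in 24 of 36 with a median of 0.02, equal to that of all genes. Sdhd, a subunit of succinate dehydrogenase, differed by 0.17 ± 0.10 and was the 1 of 36 without overlap, near the 2.63% of all genes on the higher side. Sdhc differed by 0.19 ± 0.09, and in Cox6a1, described above, the groups overlapped. Citric acid cycle genes were positive in 7 of 17 with a median of -0.01. Sucla2, a subunit of succinyl-CoA synthetase, was at 11.55, 11.57, 11.50 and 11.51 in the sham hearts and 11.41, 11.21, 11.46 and 11.36 in the TAC hearts, lower in every TAC heart by small margins, with a difference of -0.17 ± 0.09. Ketone body and branched-chain amino acid genes were positive in 13 of 17 with a median of 0.04, which was -0.01 without sham replicate 1. Bdh1 and Acat1, the latter at 0.14 ± 0.10, were the 2 of 17 without overlap, both higher, where 2.63% of all genes were. In glycolysis 9 of 21 were positive, with a median of -0.01. Hk2, a hexokinase, differed by -0.26 ± 0.18, Pfkfb2, the cardiac enzyme that makes the activator of phosphofructokinase, by -0.33 ± 0.11, and Pgam1, a phosphoglycerate mutase, by 0.45 ± 0.17. The glucose carriers Slc2a1 and Slc2a4 were at -0.01 and 0.03.

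Antioxidant genes were positive in 20 of 25 with a median of 0.06, 0.095 without the Myl7 arrays and 0.185 without the Atf3 arrays. It was 0.026 without sham replicate 1 and 0.12 without sham replicate 4. Sod3, the extracellular superoxide dismutase, was at 6.71, 6.53, 6.83 and 6.81 in the sham hearts and 7.04, 7.15, 7.01 and 7.40 in the TAC hearts, a difference of 0.43 ± 0.19, and Sod1, the cytosolic form, at 10.41, 10.51, 10.49 and 10.47 in the sham hearts and 10.65, 10.65, 10.66 and 10.62 in the TAC hearts, a difference of 0.18 ± 0.06. Neither overlapped between groups. Cat, catalase, differed by 0.22 ± 0.10 and Nqo1, a quinone reductase, by 0.43 ± 0.15, while Nfe2l2, the factor that drives Nqo1, differed by -0.13 ± 0.21. The mitochondrial Sod2 was at -0.04.

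Genes of contraction were close to 0. Sarcomere and Z-disc genes were positive in 9 of 29 with a median of -0.03. In 0 of these did the TAC values all lie above sham or all below (2.63% and 1.23% of all genes). Apart from Acta1 and Myh7, the widest differences were Myom2, an M-band protein, at -0.37 ± 0.20, Nebl at -0.28 ± 0.15, Flnc, filamin C, at -0.23 ± 0.21, Ttn, titin, at -0.22 ± 0.13 and Nexn at -0.21 ± 0.10. The regulatory light chain Myl2 and the troponin Tnni3 were at 0.03 and -0.03. Calcium-handling genes were positive in 6 of 19 with a median of -0.04. Pln, phospholamban, the inhibitor of the calcium pump, was at 13.64, 13.65, 13.61 and 13.66 in the sham hearts and 13.58, 13.52, 13.60 and 13.54 in the TAC hearts, lower in every TAC heart by a small amount, with a difference of -0.08 ± 0.04. The L-type calcium channel genes Cacna1c and Cacna2d1 differed by -0.29 ± 0.14 and -0.34 ± 0.11, and the release channel Ryr2 by -0.22 ± 0.16. Casq2, the calcium store protein, and Slc8a1, the sodium-calcium exchanger, were at 0.21 and 0.06.

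Ion channel genes were negative in 14 of 19, with a median of -0.07 (-0.17 without sham replicate 1 and -0.04 without TAC replicate 1), where 42.6% of all genes were negative. Kcnd2, the pore of the fast transient outward current in mouse ventricle, was at 7.56, 8.19, 7.76 and 8.33 in the sham hearts and 7.52, 6.98, 7.77 and 7.41 in the TAC hearts, with sham replicates 1 and 3 just below TAC replicate 3, and differed by -0.54 ± 0.24 (unadjusted p = 0.038, adjusted p = 0.587 by limma). Its partner Kcnip2 was the list member without overlap. Hcn2, a pacemaker channel, differed by -0.31 ± 0.14 and Kcna5, which carries a delayed rectifier current, by -0.29 ± 0.29. Scn4b, a sodium channel beta subunit, ran the other way at 5.73, 6.50, 5.39 and 5.59 in the sham hearts and 6.46, 6.22, 7.16 and 6.19 in the TAC hearts, a difference of 0.71 ± 0.26, and Kcnj2, the inward rectifier, differed by 0.40 ± 0.36. Gja1, the gap junction protein of the ventricle, was at -0.18 ± 0.11.

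Kinases, phosphatases and transcription factors of hypertrophic signalling were positive in 17 of 28 with a median of 0.02 and a range from -0.25 to 0.14. Gata4, a cardiac transcription factor, was at 8.65, 8.85, 8.88 and 8.88 in the sham hearts and 8.91, 8.89, 9.01 and 8.93 in the TAC hearts, without overlap, a difference of 0.12 ± 0.10. Pik3ca, a catalytic subunit of PI3-kinase, was at 9.05, 9.08, 9.11 and 9.28 in the sham hearts and 8.95, 8.99, 8.98 and 8.90 in the TAC hearts, lower without overlap, a difference of -0.18 ± 0.07. Mapk14, the p38 kinase, and Mtor differed by 0.14 ± 0.09 and 0.13 ± 0.11, and Hdac4, a repressor of Mef2, by -0.25 ± 0.15.

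Stress-response lists lay on the lower side after TAC, and sham replicates 3 and 4 had the highest means of each list. Immediate early genes were negative in 21 of 25 (median -0.21), heat shock genes in 16 of 19 (median -0.21) and unfolded protein response genes in 22 of 25 (median -0.13), against 42.6% of all genes. In 0 of these lists' genes did the groups separate, beside the 2.63% and 1.23% of all genes given above. Leaving out 1 array moved the immediate early median to -0.09 without sham replicate 3, the heat shock median to -0.07 without sham replicate 4 and -0.40 without sham replicate 1, and the unfolded protein response median to -0.06 without sham replicate 4 and -0.22 without sham replicate 1. Without sham replicates 3 and 4 the medians were 0.083, 0.14 and 0.045. These arrays were picked by Atf3, a member of the first list, so their removal takes out high sham values by choice. Hsph1, a cochaperone of Hsp70, was at 7.24, 7.54, 8.48 and 9.12 in the sham hearts and 7.12, 7.12, 7.74 and 7.46 in the TAC hearts, a difference of -0.74 ± 0.36. Manf, a secreted protein of the endoplasmic reticulum stress response, was at 6.27, 6.70, 6.88 and 6.99 in the sham hearts and 6.35, 6.20, 6.46 and 6.33 in the TAC hearts, a difference of -0.38 ± 0.15. Egr2 differed by -0.40 ± 0.16 and Fosl1, an AP-1 subunit, by -0.22 ± 0.08. Fos at -0.22 ± 0.14 and Egr1 at -0.21 ± 0.31, both classical first responders, overlapped between the groups. Otud1, a deubiquitinase named here after its values were seen, was at 7.13, 7.72, 10.51 and 9.83 in the sham hearts and 7.16, 7.35, 7.63 and 7.42 in the TAC hearts, high in the same sham replicates.

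Circadian clock genes were negative in 16 of 17, with a median of -0.20, and Arntl, the activator of the loop, was the exception at 0.32 ± 0.33. In 0 of the 17 did the groups separate (2.63% of all genes on the higher side and 1.23% on the lower). The median was -0.25 without the Myl7 arrays, -0.26 without the Atf3 arrays, and from -0.33 without TAC replicate 2 to -0.12 without TAC replicate 1. Without sham replicate 2 it was -0.13. Per2, a repressor of the loop, was at 6.88, 6.88, 7.17 and 6.92 in the sham hearts and 5.67, 7.24, 6.35 and 6.19 in the TAC hearts, with TAC replicate 2 above all sham hearts and the other 3 TAC hearts below them, and a difference of -0.60 ± 0.24 (unadjusted p = 0.0259, adjusted p = 0.553 by limma). Nr1d2, a nuclear receptor of the second loop, was at 9.35, 9.73, 9.48 and 9.52 in the sham hearts and 8.99, 9.74, 9.17 and 8.87 in the TAC hearts, a difference of -0.33 ± 0.17. Dbp, a clock output factor, differed by -0.53 ± 0.32, Ciart by -0.78 ± 0.48, Per1 by -0.42 ± 0.32 and Cry2 by -0.20 ± 0.18. The sources used here give no hour at which each heart was taken, and its part in these values was not tested. In cKO hearts the same list had a median of 0.32, with Per2 at 0.66 ± 0.24 and Arntl at -0.95 ± 0.33. The difference between genotypes for Per2 had an unadjusted p of 0.00228 and an adjusted p of 1 by limma.

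The E-box CACGTG, the site of the Clock and Arntl proteins, reads the same on both strands and was in the promoters of 5 of the 15 clock genes that have one, against 8.09% of 27025 genes. These were Per1, Cry1, Tef, Bhlhe41 and Ciart. The promoters of Ciart and Per1 are shown as members with the site, with the E-box in capitals. Ciart (chr3:95882179-95882478, minus strand) holds it 116, 58 and 44 bases before the start, and Per1 (chr11:69098699-69098998, plus strand, the first of 2 listed starts) 166 bases before it, in RefSeq coordinates of GRCm38.p6.
Ciart: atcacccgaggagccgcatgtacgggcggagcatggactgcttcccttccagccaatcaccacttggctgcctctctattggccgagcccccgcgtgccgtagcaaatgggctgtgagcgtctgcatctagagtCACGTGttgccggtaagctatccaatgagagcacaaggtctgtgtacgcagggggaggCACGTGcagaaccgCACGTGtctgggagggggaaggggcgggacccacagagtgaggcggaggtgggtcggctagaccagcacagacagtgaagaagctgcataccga
Per1: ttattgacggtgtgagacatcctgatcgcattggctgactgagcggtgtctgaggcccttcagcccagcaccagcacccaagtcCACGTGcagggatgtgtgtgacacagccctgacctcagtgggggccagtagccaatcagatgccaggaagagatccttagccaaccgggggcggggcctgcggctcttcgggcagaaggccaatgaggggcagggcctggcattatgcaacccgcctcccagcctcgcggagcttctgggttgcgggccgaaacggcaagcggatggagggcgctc
Ciart, with 3 matches, had the widest difference of the list, and Cry1 and Bhlhe41, which also hold a match, were at -0.09 and -0.01. Usf1, among the genes of smallest p above, encodes another factor that binds CACGTG. Whether the matches or Usf1 bear on the differences of the clock genes was not tested.

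Ribosomal protein genes were positive in 20 of 21 with a median of 0.08, and 0.16 without sham replicate 1. Rps9 differed by 0.29 ± 0.10 and Rpl19 by 0.17 ± 0.08, while another Rps9 probe set was at 0.07. Proteasome genes were positive in 22 of 29 with a median of 0.05. Psmb1, a subunit of the core particle, was at 8.72, 8.25, 8.47 and 8.67 in the sham hearts and 8.99, 8.80, 8.81 and 8.79 in the TAC hearts, a difference of 0.32 ± 0.10 without overlap. Autophagy and muscle ubiquitin ligase genes were positive in 17 of 24 with a median of 0.07. Bnip3, a receptor for mitochondrial autophagy, was at 10.28, 10.36, 10.33 and 10.11 in the sham hearts and 10.49, 10.75, 10.67 and 10.51 in the TAC hearts, without overlap, a difference of 0.34 ± 0.15. A second Bnip3 probe set gave 0.40, and there the groups overlapped. The atrophy ligases Fbxo32 and Trim63 were at -0.22 ± 0.18 and 0.11 ± 0.11, and Map1lc3b, the marker protein of autophagosomes, at 0.18 ± 0.07. Cell cycle genes were positive in 12 of 17, with Cdc20 at 0.31 ± 0.12 without overlap and the proliferation markers Mki67 and Top2a at -0.13 and -0.13.

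Marker lists of further cell types had medians near 0 or few measured members. Cardiomyocyte markers were positive in 7 of 16 with a median of -0.03. In 2 of the 16 the TAC values all lay above sham (2.63% of all genes), among them the cardiac transcription factor Nkx2-5 at 0.16 ± 0.06. In 1, Pln at -0.08 ± 0.04, they all lay below (1.23%). Adipocyte markers were measured for 7 of 11, and Cidea, a lipid droplet protein, differed by 0.40 ± 0.10 without overlap. Mesothelial markers were negative in 7 of 8, with a median of -0.17 (-0.09 without sham replicate 2) and Wt1 at -0.24 ± 0.14. The summed signal of the atrial markers ran from 4475 to 9678 in the sham hearts and 3816 to 10889 in the TAC hearts, with sham replicate 3 and TAC replicate 2 the highest by list mean. The atrial marker list was positive in 6 of 9 with a median of 0.07, which was -0.03 without sham replicate 2 and 0.19 without sham replicate 3. Red blood cell markers were measured for 2 of 8 and Schwann cell markers for 5 of 8. Skeletal muscle markers were positive in 5 of 8, with Acta1 the widest.

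**Figure D4:**
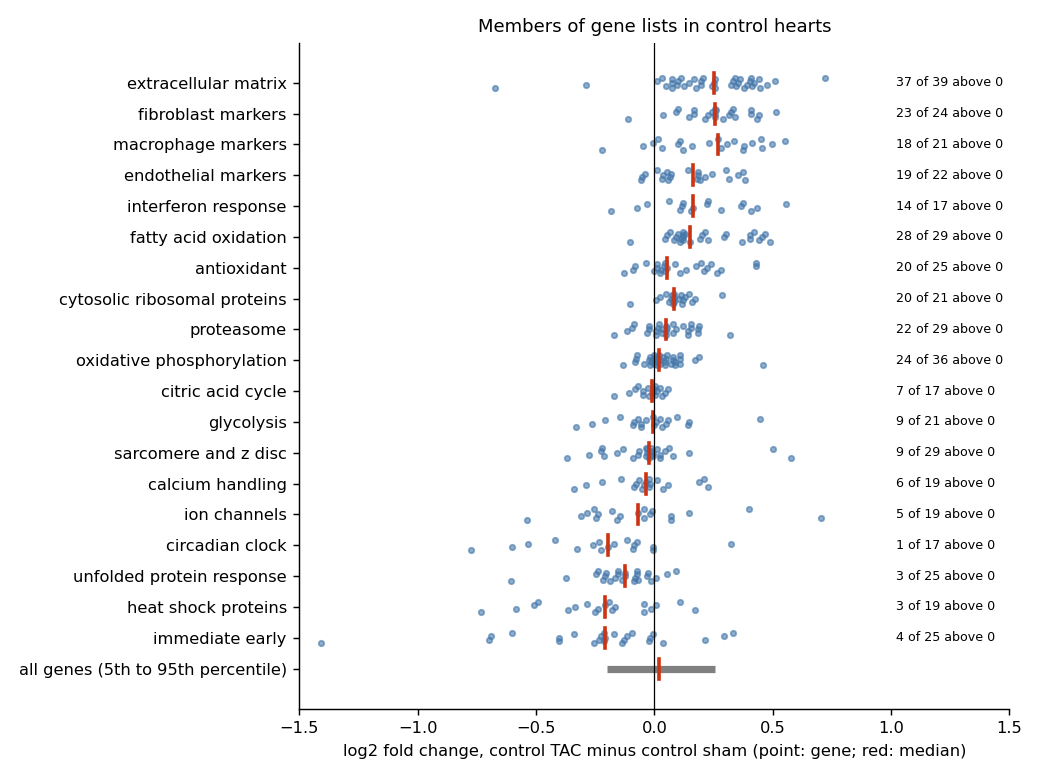
Differences between control TAC and control sham hearts (x axis, log2) for the measured genes of each list (y axis), 1 point per gene, with the list median as a red bar and the 5th to 95th percentile of all genes as a grey bar. Matrix, fibroblast and fatty acid oxidation genes lie to the right of 0 with few exceptions, and clock genes to the left except Arntl.

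Set out by heart, the list means overlapped between sham and TAC in every list plotted except the antioxidant genes. The matrix mean was 6.82, 6.85, 7.55 and 7.21 in the sham hearts and 7.20, 7.59, 6.99 and 7.57 in the TAC hearts, so sham replicate 3 lay among the highest. The macrophage mean was 7.30 in TAC replicate 4 and 6.66 to 6.83 in the other TAC hearts, against 6.41 to 6.94 after sham. TAC replicates 2 and 4 were the high TAC hearts for the matrix list and TAC replicates 1 and 3 for fatty acid oxidation. The antioxidant mean was nearly constant in the TAC hearts, at 8.94 to 8.95, and the lowest of these was just above the highest sham mean. The clock mean was lowest in TAC replicates 1 and 4, at 6.94 and 7.02.

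**Figure D5:**
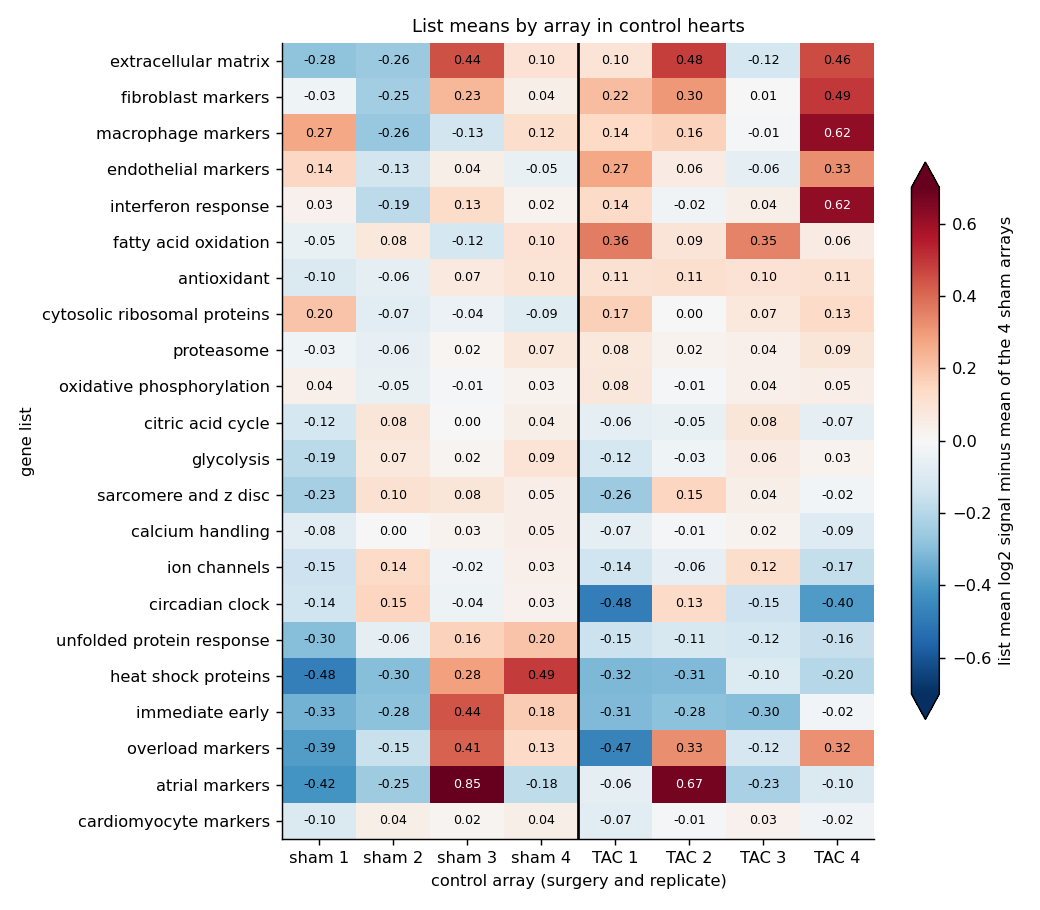
Mean log2 value of each gene list (y axis) in each of the 8 control hearts (x axis) relative to the mean of the 4 sham hearts, with the colour and the printed number giving that difference. Sham replicates 3 and 4 are high for the immediate early, heat shock and unfolded protein response lists, and TAC replicate 4 is high for macrophage and interferon genes.

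The same surgery in cKO hearts was used only to ask where the control hearts differed. By the test of the difference between genotypes, 0 of 21333 probe sets passed with limma, 790 (3.7%) had an unadjusted p under 0.05, and the smallest adjusted p was 0.759. For Serpina3n the difference between TAC and sham was 2.13 ± 0.50 in control and 0.57 ± 0.50 in cKO hearts, a gap of 1.56 ± 0.71 (SE, unadjusted p = 0.0432, adjusted p = 1). Among the 13670 genes, the smallest p-values of this test belonged to Ogfod3, Cope, Usf1, Cryzl2, Lrrc71 and Arsa. Cryzl2 was at 0.36 ± 0.13 in control and -0.36 ± 0.13 in cKO hearts, Arsa, a lysosomal sulfatase, at 0.34 ± 0.10 and -0.20 ± 0.10, Ogfod3 at 0.18 ± 0.07 and -0.28 ± 0.07, and Lrrc71 at -0.29 ± 0.08 and 0.14 ± 0.08. Cope and Usf1 were at -0.06 ± 0.06 and -0.12 ± 0.09 in cKO hearts. The list medians in cKO hearts were 0.37 for matrix genes, 0.29 for fibroblast markers, 0.25 for macrophage markers, 0.33 for interferon genes and -0.10 for fatty acid oxidation genes. For the stress-response lists they were -0.20 for immediate early, -0.22 for heat shock and -0.105 for unfolded protein response genes. Whether a list differs between genotypes was not tested. Zbtb17 itself differed by 0.09 ± 0.08 between TAC and sham in control hearts, from a sham mean of 6.36.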

How the data were processed

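The authors deposited 1 table of log2 values for 35556 probe sets on 16 arrays, hybridised with biotin-labelled RNA per the labels' protocols. That the scale is log2 was read from the values. MAS5 is named in the submitters' processing notes, and how arrays were scaled to each other is not given there. Such scaling would hide a shift common to every gene.

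Each array was assigned by its title to 1 of 4 groups of 4 mice. The members and gene lists were chosen with earlier results of these data known. Symbols came from the platform annotation: 21789 probe sets have 1, 1621 have several and 12146 are unlisted. Of those with 1 symbol, 21698 matched RefSeq by Entrez ID. The 21333 probe sets with a mean above 4.37 (40th percentile) were tested. limma 3.58.1 in R 4.3.3 fitted the 4 groups together over the 16 arrays, with 12 degrees of freedom left and a mean-variance trend. Tests were two-sided, with Benjamini-Hochberg adjustment over all probe sets. The script was tested on simulated data. Every p in the text is from this fit unless another is named.

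The 124 genes named by rule were the overload markers, the 10 of smallest p, the 10 largest positive and negative differences with no overlap and an unadjusted p under 0.05, 2 members of every other list with the sign of its median and the smallest p, and 6 of smallest p between genotypes. Other genes were named after their values were seen, to describe the lists. Genes of a list that were not above the filter, or have no probe set of 1 symbol, were not measured. Alternatives were median centring, quantile normalization, a stricter filter (60th percentile), no filter, array weights, only the control arrays, no trend, a block for the replicate number, 1 probe set or the mean of probe sets per gene, and leaving out each array. The alternatives by Myl7 and Atf3 were added after the data were seen. Figures were drawn with matplotlib 3.10.9.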

Additional observations from a re-analysis of the deposited data

Results flagged for a closer look

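Within groups of 4 hearts, 1 heart can lie far from the other 3. Of 248 groups of named genes and 76 groups of list means examined, 17 had such a heart by Dixon's test at the 95% level, and chance alone marks about 1 group in 20.

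Sham replicate 3 was high in Serpina3n at 6.86 (the others 5.90 to 6.04), in Lox at 5.25 (4.51 to 4.62), in Per2 at 7.17 (6.88 to 6.92) and in Pdgfrb at 9.06 (8.78 to 8.80). Sham replicate 2 was high in Kcnip2 at 9.49 (9.23 to 9.26). Sham replicate 1 was low in Idh3g at 12.02 (12.24 to 12.27) and Map1lc3b at 10.31 (10.47 to 10.49), and high in Ptprc at 6.29 (the others 5.88 at most) and in the mean of ribosomal protein genes at 10.63 (10.34 to 10.39).

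Among TAC hearts, replicate 1 was high in Vegfc at 6.78 (6.58 to 6.59) and Psmb1 at 8.99 (8.79 to 8.81) and low in Pam, an enzyme rich in atrial tissue, at 10.41 (10.83 to 10.88). Replicate 3 was low in Sprr4 at 4.48 (4.69 to 4.71) and high in the mean of citric acid cycle genes at 11.29 (11.14 to 11.15). Replicate 4 was high in Tnf at 5.26 (4.67 to 4.74), Csf1r at 8.30 (7.82 to 7.88) and the mean of immediate early genes at 6.83 (6.54 to 6.56).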

How the results depend on the processing

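The count of 0 probe sets with an adjusted p under 0.05 by limma, beside 1774 at an unadjusted p under 0.05, was 5 with no filter, 1 (Serpina3n) with only the 8 control arrays, and 0 to 2 when any 1 array was left out. Dnah3 was called without cKO sham replicate 1, cKO sham replicate 4 (with Pde7a), control TAC replicate 3 or control sham replicate 3, and a probe set without a gene name without control TAC replicate 4. The Dnah3 probe set is the one whose group mean exceeded the filter only in control sham hearts. The unadjusted count was 3173 with no filter, 1124 with 1 probe set per gene, 1123 with the mean of probe sets, 1133 without the Myl7 arrays, and 1349 to 2425 when 1 array was left out. Fewer probe sets are tested with 1 value per gene and more with no filter. The replicate number as a block gave 0 calls and 1754 at an unadjusted p under 0.05. Deviations of same-numbered control sham and TAC arrays correlated at 0.0985, 0.0574, -0.0931 and 0.0525, and those of differently numbered arrays at -0.2287 to 0.1796. No pairing by number was seen, and 4 arrays a group are too few to settle whether the numbers pair the samples. The block changed no call. The difference between genotypes had 0 calls throughout.

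Of the named genes, 16 took the opposite sign in at least 1 alternative other than leaving 1 array out. Without the Myl7 arrays these were Nppa at 0.53, Nppb at 0.36, Ankrd1 at 0.042, Rcan1 at 0.42, Csrp3 at 0.04, Enah at 0.01, Sox10 at -0.038 and Slc4a1 at -0.022. Without the Atf3 arrays they were Nppa at 0.16, Nppb at 0.16, Rcan1 at 0.435, Csrp3 at 0.08, Enah at 0.0975, Ccn2 at 0.14, Myc at 0.245, Hspa8 at 0.0425, Ccl7 at 0.015 and Sox10 at -0.04. Array weights gave Xirp2 at -0.0039, Lox at -0.0048, Pam at -0.0004 and Alas2 at -0.0575. Quantile normalization gave Xirp2 at -0.0036, and median centring gave Csrp3 at 0.021. When 1 array was left out, 13 genes took the opposite sign: Nppa from -0.56 to 0.46, Nppb from -0.58 to 0.095, Ankrd1 from -0.18 to 0.0475, Rcan1 from -0.26 to 0.17, Csrp3 from -0.065 to 0.045, Enah from -0.21 to 0.0908, Xirp2 from -0.11 to 0.17, Lox from -0.0358 to 0.29, Pam from -0.0333 to 0.21, Alas2 from -0.10 to 0.47, Camp from -0.0425 to 0.10, Slc4a1 from -0.005 to 0.098 and Sox10 from -0.0033 to 0.083. The cause was not tested. Most of these differences are small beside their SE. Pde7a and Serpina3n passed the threshold in at least 1 alternative. Median centring moved the median of all genes to 0.049 and quantile normalization to 0.0095. No neutrophil marker was left to give a median with the stricter filter. The interval around each difference is set by 4 arrays a group, and genes near the filter have little signal above the lowest values.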

Other observations

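Several probe sets that the platform annotation does not list had small p-values, and their identity is not known here. Probe set 10343334 was at 6.18, 6.16, 5.95 and 6.13 after sham and 4.40, 4.90, 4.77 and 5.47 after TAC, a difference of -1.22 ± 0.20 (adjusted p = 0.162 by limma), and probe set 10492452 at 6.57, 6.20, 6.17 and 5.92 after sham and 5.20, 5.19, 5.33 and 4.92 after TAC, a difference of -1.06 ± 0.20 (adjusted p = 0.223). On the higher side, probe set 10341314 was at 4.57, 4.20, 4.22 and 4.65 after sham and 5.98, 5.36, 5.66 and 5.51 after TAC, a difference of 1.22 ± 0.23 (adjusted p = 0.223), and probe set 10343252 at 10.48, 10.22, 10.25 and 10.39 after sham and 10.88, 10.72, 10.88 and 10.71 after TAC, a difference of 0.46 ± 0.08 (adjusted p = 0.162). In all 4 the sham and TAC values did not overlap. In cKO hearts the differences were -0.45, -0.42, -0.21 and 0.17. Whether they are control probe sets was not tested.

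Lrg1, a secreted glycoprotein of the acute-phase response chosen after its values were seen, was at 7.15, 7.13, 7.0 and 7.16 in the sham hearts and 7.50, 7.48, 7.89 and 7.89 in the TAC hearts. The TAC hearts of Lrg1 differed from sham by 0.58 ± 0.16 (unadjusted p = 0.00213, adjusted p = 0.425 by limma). Ogdhl, an isoform of the oxoglutarate dehydrogenase subunit also chosen after its values were seen, was at 8.02, 7.80, 8.22 and 8.79 in the sham hearts and 7.12, 5.24, 8.43 and 7.33 in the TAC hearts, with TAC replicate 2 far below the others and a difference of -1.18 ± 0.46.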
